A study of Mus musculus with 12 samples.

Results

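Epcam and 8 genes of epithelial cell junctions were examined in RNA from sorted mouse alveolar type II (ATII) cells, the surfactant-producing cells of the lung alveolus. The 9 genes were chosen by symbol (Epcam, Cdh1, Cldn3, Cldn7, Cldn18, Ocln, Tjp1, Tjp3 and F11r) out of 23238 symbols counted, and all 9 were among the 13054 genes with enough counts to be tested. Epcam is also one of the markers by which the cells were sorted, the other being Cd74. There were 4 groups of 3 libraries: PBS-treated control mice (Con), bleomycin-treated control mice (BLM), PBS-treated p300 knockout mice (KO) and bleomycin-treated p300 knockout mice (KOBLM). Bleomycin, a drug that damages DNA and injures the lung, was instilled intratracheally (4 mg/kg), and tamoxifen was given beforehand at 10 mg/kg to mice 8 weeks old. The knockout mice carried loxP sites around exon 9 of p300 and a tamoxifen-inducible Cre recombinase under the Spc promoter, which is active in ATII cells, so that other cell types kept the gene. The control mice are called floxed in the study's results, C57BL/6 in its sorting methods and WT or negative control in the labels, and the labels give the tamoxifen treatment for every sample. For qRT-PCR of such cells, the study's supplement describes floxed mice given vehicle or tamoxifen, in which case tamoxifen and the deletion cannot be told apart. In the study, each group stands for 3 mice.

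Epithelial cells are held together near their apical edge by tight junctions and, just below, by adherens junctions. In tight junctions, claudins form the strands that seal the gap between cells, occludin is a further membrane protein of the strands, junctional adhesion molecule A (encoded by F11r) is an immunoglobulin-like adhesion protein, and the zonula occludens scaffolds (Tjp1 and Tjp3) tie the membrane proteins to actin. Adherens junctions are built on E-cadherin (Cdh1), while EpCAM is an adhesion protein of the lateral membrane that is known to bind claudin-7. Claudin-18 is the claudin for which the alveolar epithelium is best known.

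The promoters of Epcam and of F11r, the member whose levels followed Epcam most closely without 1 library that stood apart, and those of Cldn18, whose Con and KO libraries did not overlap, are printed here. Each is the 250 bases before a transcription start in RefSeq on GRCm38.p6, written 5′ to 3′ on the gene's strand. Capitals mark the E-box CAGGTG or its reverse complement CACCTG, the sequence recognized by the Snail and Zeb repressors of epithelial genes.
Epcam, chr17:87635729-87635978, plus strand: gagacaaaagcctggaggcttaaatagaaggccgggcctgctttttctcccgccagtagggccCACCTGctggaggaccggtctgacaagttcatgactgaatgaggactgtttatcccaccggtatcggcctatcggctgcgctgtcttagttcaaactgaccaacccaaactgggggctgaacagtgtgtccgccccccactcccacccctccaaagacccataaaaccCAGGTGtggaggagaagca
F11r, chr1:171437311-171437560, plus strand: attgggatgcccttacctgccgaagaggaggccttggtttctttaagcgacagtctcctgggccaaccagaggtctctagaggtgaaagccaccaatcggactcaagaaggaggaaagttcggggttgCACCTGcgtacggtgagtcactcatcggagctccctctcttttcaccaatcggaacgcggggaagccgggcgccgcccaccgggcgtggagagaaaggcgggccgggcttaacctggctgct
Cldn18, upstream start, chr9:99717268-99717517, minus strand: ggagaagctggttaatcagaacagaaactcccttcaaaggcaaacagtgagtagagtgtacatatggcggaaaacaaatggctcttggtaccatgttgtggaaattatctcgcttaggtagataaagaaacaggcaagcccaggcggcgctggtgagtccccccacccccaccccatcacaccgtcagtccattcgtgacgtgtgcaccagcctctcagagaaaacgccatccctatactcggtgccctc
Cldn18, downstream start, chr9:99710064-99710313, minus strand: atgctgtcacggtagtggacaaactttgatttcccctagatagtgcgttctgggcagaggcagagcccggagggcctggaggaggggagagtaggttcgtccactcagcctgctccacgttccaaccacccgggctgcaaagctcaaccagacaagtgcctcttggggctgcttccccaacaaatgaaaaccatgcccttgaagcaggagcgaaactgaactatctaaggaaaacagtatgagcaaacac

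The Epcam window holds 2 E-boxes, whose first bases lie 187 and 19 bases before the start, and that of F11r holds 1, at 122 bases. Neither Cldn18 window holds this sequence, which says only that these letters are not in them. Of the 12 promoter windows listed for 8 of the 9 members (Cdh1 had none; Cldn7, Cldn18, Ocln and Tjp3 had 2 each, those of Ocln overlapping), 6 contained an E-box on either strand, against 17.2% of all 32851 promoters of the same length. The core bound by Grainyhead factors, AACCGG, was in 2 of the 12 and in 5.62% of all promoters, and the GC box GGGCGG was in 7 of the 12 and in 32.7% of all. A match is a description of the sequence, and no binding was measured in these libraries. In the GENCODE M21 annotation of GRCm38, the Epcam window lies outside the gene, the last 26 bases of the F11r window fall in the first exon of F11r, and the downstream Cldn18 window lies in an intron of Cldn18. Both Cldn18 windows also overlap Gm16004, and the F11r window overlaps Gm26641.

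The members are spread over 9 chromosomes. Epcam lies on chromosome 17 from 87635979 to 87651129, Cdh1 on chromosome 8 from 106603351 to 106670246, F11r on chromosome 1 from 171437535 to 171464603 and Cldn18 on chromosome 9 from 99689461 to 99717267. Cldn3 (chromosome 5, 134986214 to 134987472) has a single exon. At the 3′ ends, where this library type is read, Cldn3 is overlapped by the antisense gene Wbscr25 and Tjp3 by Apba3 on the opposite strand. The sources used here do not say whether the counting used strand, so that reads of these pairs could not be told apart.

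Libraries held 7005005 to 11153154 counts, and 3 counts, taken as the detection floor, came to 0.269 to 0.428 CPM, where CPM is a gene's count relative to all counts of its library. Counting error alone enters this floor. Because the kit reads 1 fragment near the poly(A) end of each transcript, CPM does not grow with transcript length and can be set side by side between genes. Ep300, the deleted gene, was counted at 141, 143 and 51.0 CPM in Con 1 to 3 and at 145, 154 and 103 CPM in KO 1 to 3. Its log2 fold change in KO against Con was 0.39 (SE 0.69, edgeR quasi-likelihood p = 0.579, adjusted p = 1.0, exact permutation p = 0.5), and in KOBLM against BLM it was also 0.39 (p = 0.58, adjusted p = 1.0), so Ep300 was not lower in the libraries labelled KO and KOBLM. The reads come from the 3′ end, outside the floxed exon, and every direction given for these groups rests on the labels. Apart from these counts, the study reported the deletion by qRT-PCR of primary ATII cells and by co-staining of p300 and cell markers in lungs.

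The library labelled BLM 3 stood apart. Its counts correlated with those of BLM 1 and BLM 2 at Spearman coefficients of 0.593 and 0.598 over genes, and 15 pluripotency genes summed to 2893 CPM in it, led by Dppa5a and Tet1, against at most 27.7 CPM in any other library. Of these 15 genes, Zfp42, Esrrb and Fgf4 were at 0 in all 12 libraries. The sorted cells were not pure ATII cells by their transcripts. The summed CPM of 12 ATII markers, led by Sftpa1 and Sftpc, ran from 184 to 2170 CPM, whereas 16 macrophage markers, led by Chil3 and Ctss, summed to 1316 CPM in BLM 3 and to 11442 to 45379 CPM in each of the others, 2.28 to 141 times the ATII sum. Sftpc was at 0.554 CPM in KOBLM 3, and Sftpb was at 0 there. Sums of 5 alveolar type I markers (24.1 to 399 CPM), 7 airway markers (16.6 to 246 CPM, Muc5ac at 0 throughout), 9 endothelial markers (79.2 to 1639 CPM), 6 fibroblast markers (40.2 to 1839 CPM) and 8 lymphocyte markers (0 to 84.4 CPM) were below the macrophage sum in every group. The fibroblast sum exceeded the ATII sum in all 3 BLM libraries, in KO 2 and in KOBLM 2. The endothelial sum exceeded it in Con 3, BLM 1 and all 3 KOBLM libraries, and the alveolar type I sum did in KO 2 and KOBLM 3. Rn45s, a ribosomal RNA precursor, took 2.04% to 21.6% of the counts, most in KO 2, and 6847 to 13838 genes were detected, with BLM 3 (6847), KO 3 (8790) and KOBLM 2 (9018) lowest.

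**Figure D1:**
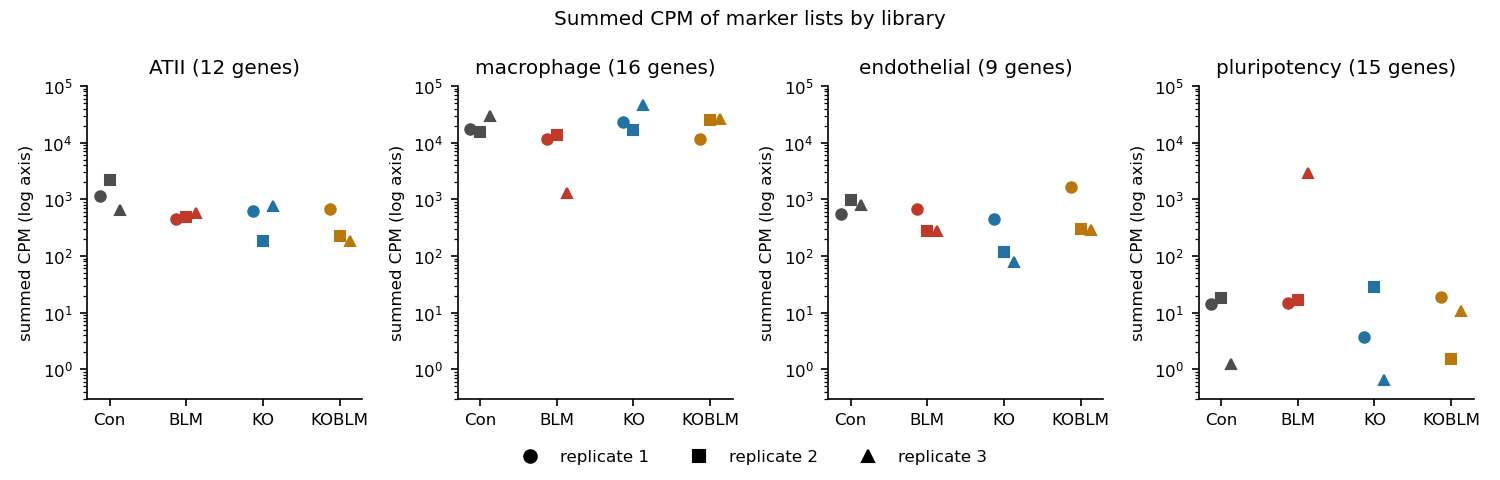
Summed CPM (log axis) of the ATII, macrophage, endothelial and pluripotency marker lists in each of the 12 libraries, by group, with 1 point per library and the replicate number as the marker shape. Macrophage markers lie above ATII markers in all 12 libraries, and BLM 3 has the lowest macrophage sum (1316 CPM) and the highest pluripotency sum (2893 CPM).

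Epcam, Cdh1 and F11r were the abundant members, with means over the 12 libraries of 100.2, 176 and 202 CPM. Together they held 58.9% to 98.8% of the counts of the 9 members in a library. Tjp1 (29.6 CPM), Cldn18 (18.5 CPM) and Tjp3 (14.5 CPM) were intermediate, and Ocln (5.85 CPM), Cldn7 (1.48 CPM) and Cldn3 (0.863 CPM) were the least abundant. Cldn3 was at 0 in 8 of 12 libraries and Cldn7 in 6, Tjp1 and Tjp3 in 2 each, and Cldn18 and Ocln in 1, which was BLM 3 for both. The common biological coefficient of variation over the 4 groups was 1.44, and the ordered group means of the 9 genes gave 27 pairs of neighbours, of which none had ranges that did not overlap. The difference exceeded the larger SD in 2 of these pairs, Con over KO for Cldn3 and BLM over Con for Tjp3.

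**Figure D2:**
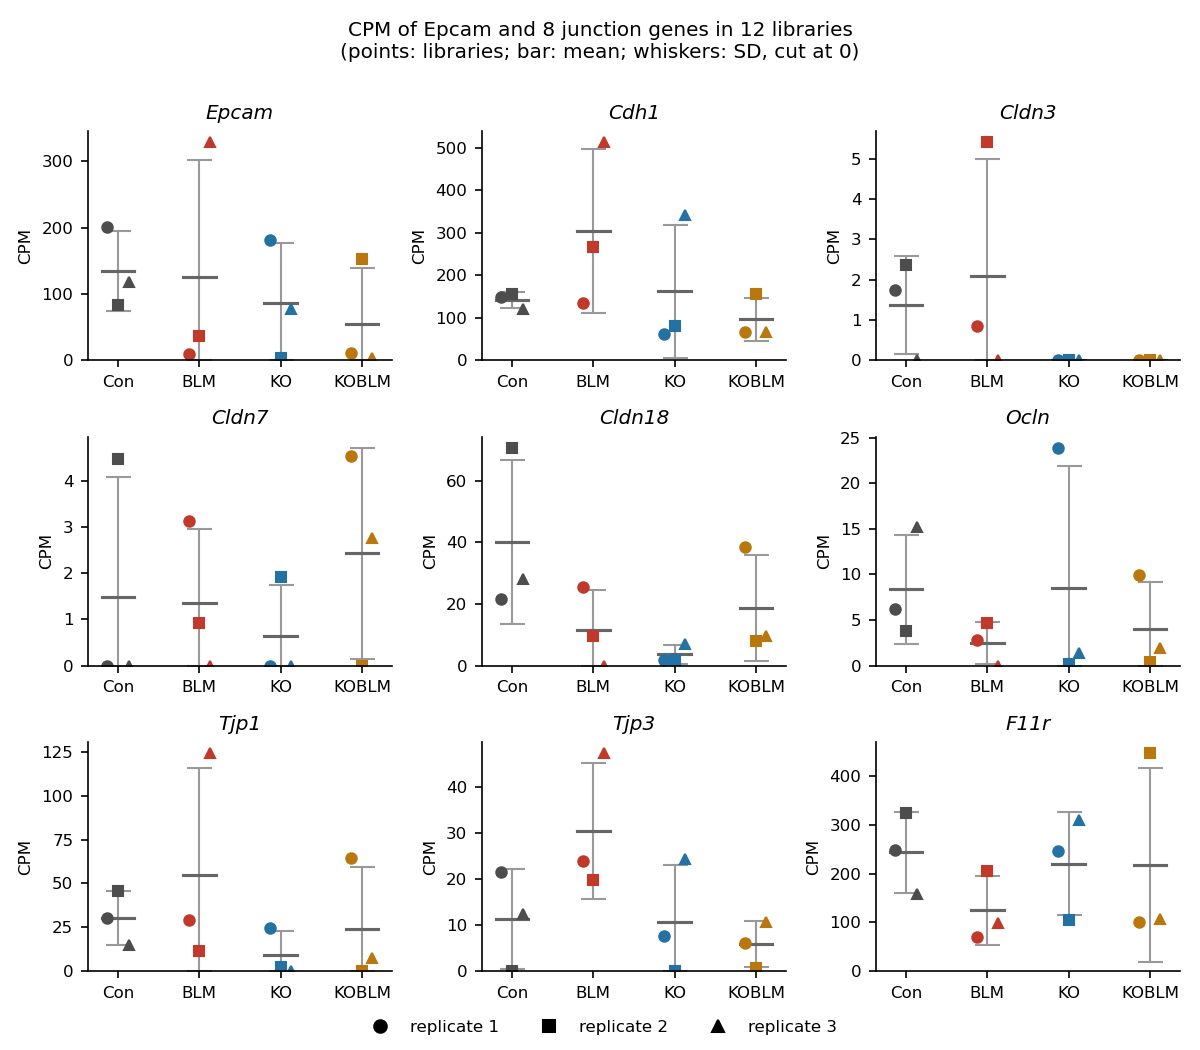
CPM of Epcam and the 8 junction genes in the 12 libraries by group, 1 panel per gene with its own linear axis from 0, with points for libraries, bars for means and whiskers for the SD (n = 3). In most panels the whiskers of the 4 groups overlap, and BLM 3 is the highest library for Epcam, Cdh1, Tjp1 and Tjp3 and is at 0 for Cldn3, Cldn7, Cldn18 and Ocln.

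Epcam, the sorting marker, varied 120-fold between libraries, more than it varied between group means. It was counted at 201, 82.7 and 118 CPM in Con 1 to 3. In BLM it was at 9.56, 35.7 and 329 CPM. The libraries labelled KO had 181, 2.75 and 76.8 CPM, and those labelled KOBLM 10.8, 152 and 2.99 CPM. Each group except Con thus held a library with under 11 CPM and another well above it, and every pair of groups overlapped. The 2.75 CPM of KO 2 rest on 20 counts and the 2.99 CPM of KOBLM 3 on 27. The means were 134 ± 60.6 CPM in Con, 125 ± 177 CPM in BLM, 86.8 ± 89.5 CPM in KO and 55.2 ± 83.7 CPM in KOBLM (SD, n = 3), an order in which no neighbours differed beyond their spread.

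In BLM against Con the log2 fold change of Epcam was -0.29 (SE 1.40, 95% interval -3.28 to 2.70, exact permutation p = 1.0). Without BLM 3 it was -2.37 (SE 1.48), which did not pass the unadjusted threshold for a call (fold change over 1.5 and edgeR p under 0.05), both remaining BLM libraries lying below all Con libraries. In KOBLM against BLM it was -0.94 (SE 1.41, exact permutation p = 0.6), and 1.14 without BLM 3, neither of them called. The comparisons of KOBLM turned on single libraries. Without KOBLM 2, the log2 fold change was -3.83 against BLM, with BLM 3 kept, and -3.58 against KO, and Epcam passed the unadjusted threshold in both. With all libraries it was -0.68 against KO (exact permutation p = 0.7), and without KO 1 it was 0.59. KOBLM 2 was among the libraries with few detected genes (9018), and the part of this in the result was not tested. The genotype effect averaged over treatments moved from -0.75 (exact permutation p = 0.375) to -2.20 without KOBLM 2, which was called. Without BLM 3 this effect was 0.29, which was not. Cd74, the other sorting marker, stayed between 460.4 and 2247 CPM and differed by 0.40 on the log2 scale in BLM against Con (SE 0.61, exact permutation p = 0.7) and by -0.87 in KOBLM against BLM (exact permutation p = 0.2). In such bulk samples, fewer cells that express a gene and less RNA of it per cell cannot be told apart.

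Within a library, the share of Epcam among the counts of the 9 members ran from 1.42% in KO 2 (95% Wilson interval 0.920% to 2.18%, of 1410 counts) to 33.1% in KO 1 (31.9% to 34.4%, of 5389 counts), both of the same group. The ratio of Epcam to Cdh1 ran from 0.0341 in KO 2 to 2.93 in KO 1. The members thus did not keep a fixed proportion to the sorting marker.

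**Figure D3:**
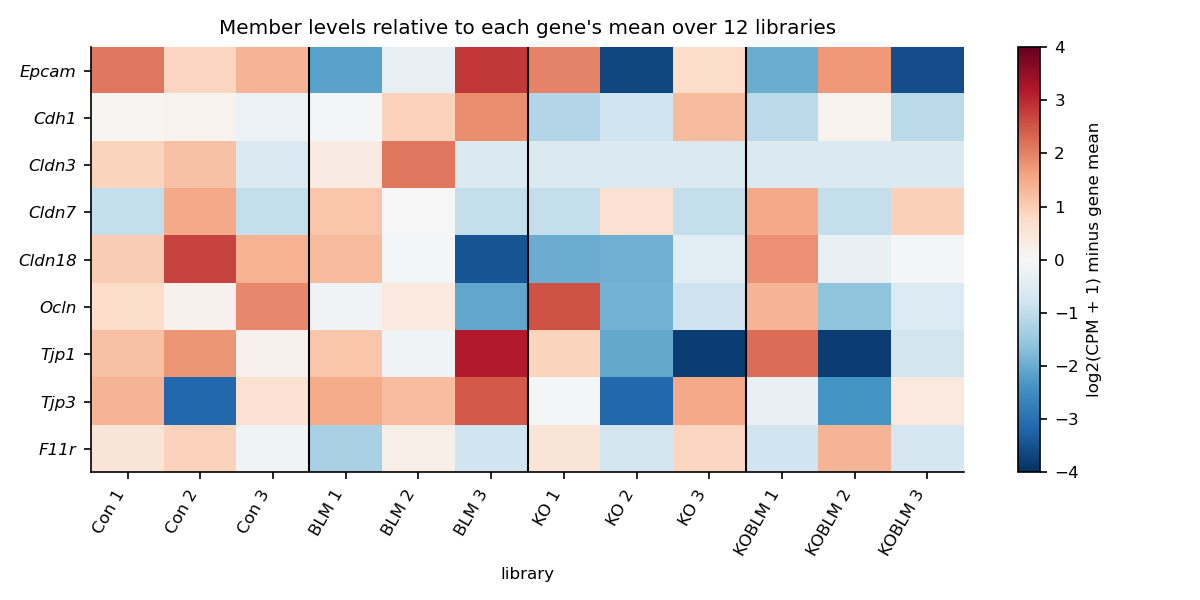
Log2(CPM + 1) of each member minus that gene's mean over the 12 libraries, as colors, with genes in rows and libraries in columns ordered by group. Epcam is far below its mean in KO 2 (2.75 CPM) and KOBLM 3 (2.99 CPM), and no column is high or low in all 9 genes.

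Cdh1, encoding E-cadherin, was the only member that passed the unadjusted threshold with all libraries in a comparison of groups of libraries. It was counted at 149, 156 and 120.4 CPM in Con and at 134, 265 and 513 CPM in BLM. The libraries labelled KO had 61.7, 80.6 and 343 CPM, and those labelled KOBLM 66.5, 155 and 65.5 CPM. Con was tight, at 142 ± 19.1 CPM, while BLM (304 ± 192 CPM) and KO (162 ± 157 CPM) each held 1 library above the others, and KOBLM was lowest at 95.6 ± 51.3 CPM (SD, n = 3). The groups overlapped in every comparison.

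In KOBLM against BLM, Cdh1 had a log2 fold change of -1.53 (SE 0.67, 95% interval -2.97 to -0.09, edgeR p = 0.0391, adjusted p = 1.0, exact permutation p = 0.2). It was the single member of 9 called in this comparison, where 3.16% of all tested genes were called and 1.78% were called as lower. The call was lost without BLM 3 (-1.15), without BLM 2 (-1.49), without KOBLM 1 (-1.27) and without KOBLM 3 (-1.34), and also in a fit of only these 6 libraries (-1.53), while the direction held in each. In BLM against Con the log2 fold change was 1.04 (SE 0.67, exact permutation p = 0.3), and 0.65 without BLM 3. The interaction, which compares the effect of bleomycin in the libraries labelled as knockout with that in the controls, was -1.72 (SE 0.94, adjusted p = 1.0), and it passed the unadjusted threshold without KO 1 (-2.08) or KOBLM 2 (-2.18) but not with all libraries. Averaged over treatments, the genotype effect was -0.67 (exact permutation p = 0.28), and it was called at -1.15 without KO 3, the KO library with the most Cdh1. Several marker lists differed between BLM and KOBLM as well: the fibroblast sum was 1134 to 1839 CPM in BLM and 157 to 658 CPM in KOBLM, the airway sum 217 to 246 CPM and 21.3 to 112 CPM, and the alveolar type I sum 276 to 399 CPM and 28.0 to 232 CPM. Their part in the result was not tested.

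Cldn18, the alveolar claudin, had its lowest group mean in the libraries labelled KO. In Con it was counted at 21.5, 70.8 and 28.0 CPM, and in KO at 1.82, 1.92 and 7.12 CPM. The BLM libraries had 25.4, 9.63 and 0 CPM, and the KOBLM libraries 38.5, 8.09 and 9.53 CPM. All KO libraries lay below all Con libraries and below all KOBLM libraries, whereas BLM overlapped each of the other groups. The means were 40.1 ± 26.8 CPM in Con, 18.7 ± 17.2 CPM in KOBLM, 11.7 ± 12.8 CPM in BLM and 3.62 ± 3.03 CPM in KO (SD, n = 3). Neighbours in this order overlapped and did not differ beyond their spread.

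In KO against Con the log2 fold change of Cldn18 was -3.47 (SE 1.87, 95% interval -7.48 to 0.54, adjusted p = 1.0), which was not called. The exact permutation p was 0.1, the smallest that 3 against 3 libraries allow. Cldn18 was the single member whose Con and KO ranges did not overlap, in a comparison in which 9.74% of all tested genes did not overlap and 7.56% lay lower in KO. It passed the unadjusted threshold with DESeq2 (-3.39) and in a fit of these 6 libraries alone (-3.43). In KOBLM against KO the log2 fold change was 2.46 (SE 1.79, exact permutation p = 0.1), again without overlap, where 6.82% of all tested genes had none and 3.95% lay higher in KOBLM. The interaction was 4.15 (SE 2.502, 95% interval -1.21 to 9.50, adjusted p = 1.0), called by DESeq2 and not by edgeR. The effect of bleomycin in the controls was -1.69 (SE 1.75, exact permutation p = 0.2), and -1.11 without BLM 3, in which Cldn18 had no count. The endothelial sum was 542 to 983 CPM in Con, 79.2 to 441 CPM in KO and 291 to 1639 CPM in KOBLM, with KO and KOBLM overlapping. The ATII sum was 637 to 2170 CPM in Con, 184 to 752 CPM in KO and 184 to 682 CPM in KOBLM. Their part in the result was not tested.

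Cldn3, a claudin of many epithelia, was counted in 4 libraries, all of them controls. It was at 1.74 and 2.35 CPM in Con 1 and Con 2 and at 0.857 and 5.41 CPM in BLM 1 and BLM 2, from 6 to 41 counts, and at 0 in Con 3, BLM 3 and all 6 libraries labelled KO and KOBLM. Against the floor of 3 counts per library, the Con mean was at least 4.12-fold higher than KO and the BLM mean at least 6.12-fold higher than KOBLM. The genotype effect averaged over treatments passed the unadjusted threshold (edgeR adjusted p = 1.0), and the exact permutation p within treatments was 0.08. It was the single member called in that average, where 2.9% of all tested genes were called and 1.95% were called as lower. Cldn3 passed the count filter through control libraries alone, so its direction was set by how it entered the test. The call held without each of the 12 libraries in turn, which therefore adds no support. Neither KO against Con nor KOBLM against BLM was called (exact permutation p = 0.4 for each). At 82 counts in all 12 libraries, Cldn3 was the least counted member, and Wbscr25 reads could be among them.

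Cldn7, whose product binds EpCAM, was counted in 6 libraries at up to 4.55 CPM. It was found in Con 2 (4.49 CPM), BLM 1 and BLM 2 (3.14 and 0.923 CPM), KO 2 (1.92 CPM), and KOBLM 1 and KOBLM 3 (4.55 and 2.77 CPM). Each group thus held libraries with and without it, and its log2 fold change in BLM against Con was -0.11 (SE 3.14, 95% interval -6.82 to 6.61, exact permutation p = 1.0). At this depth no difference between groups was detectable for Cldn7. Ocln, encoding occludin, was found in 11 libraries but reached 10 CPM only in Con 3 (15.2 CPM) and KO 1 (23.9 CPM). The group means were 8.48 ± 13.4 CPM in KO, 8.36 ± 6.03 CPM in Con, 4.06 ± 5.12 CPM in KOBLM and 2.49 ± 2.33 CPM in BLM (SD, n = 3), and no neighbours differed beyond their spread. Its log2 fold change in BLM against Con was -1.56 (SE 2.48, exact permutation p = 0.2), and -0.98 without BLM 3.

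F11r, the adhesion molecule gene, was the most abundant and least variable member. It was counted at 248.9, 325 and 158 CPM in Con and at 70.0, 205 and 99.2 CPM in BLM. The libraries labelled KO had 246, 104 and 311 CPM, and those labelled KOBLM 99.96, 449 and 107 CPM. In BLM and Con the ranges overlapped, since BLM 2 lay above Con 3. F11r averaged 244 ± 83.6 CPM in Con and 125 ± 70.9 CPM in BLM, with a log2 fold change of -0.91 (SE 0.69, 95% interval -2.38 to 0.56, exact permutation p = 0.2). Without BLM 3 it was -0.67. KO and KOBLM had means of 220.1 ± 106 CPM and 219 ± 199 CPM (SD, n = 3), and the log2 fold change in KOBLM against BLM was 0.80 (SE 0.69, exact permutation p = 0.5).

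The scaffold genes did not separate the groups past the threshold. Tjp1, encoding ZO-1, was counted at 30.2, 45.8 and 14.8 CPM in Con, at 29.3, 11.5 and 125 CPM in BLM, at 24.6, 2.33 and 0 CPM in KO and at 64.8, 0 and 7.32 CPM in KOBLM. The larger SD exceeded the distance between each pair of neighbouring group means of Tjp1. Con and KO, which are not neighbours, averaged 30.3 ± 15.5 CPM and 8.99 ± 13.6 CPM (SD, n = 3). The log2 fold change in KO against Con was -1.64 (SE 1.99, exact permutation p = 0.2). The effect of bleomycin in the controls was 0.69 (exact permutation p = 0.9), and -0.48 without BLM 3, the library with the most Tjp1. Tjp3, encoding ZO-3, was counted at 21.5, 0 and 12.4 CPM in Con, at 24.0, 19.8 and 47.3 CPM in BLM, at 7.50, 0 and 24.3 CPM in KO and at 6.16, 0.674 and 10.6 CPM in KOBLM. All BLM libraries lay above all KOBLM libraries, as 4.98% of all tested genes did and 11% did in either direction, with an exact permutation p of 0.1. The log2 fold change of Tjp3 in KOBLM against BLM was -2.17 (SE 2.18, 95% interval -6.83 to 2.49, adjusted p = 1.0), and -1.89 without BLM 3. The same marker lists differed between BLM and KOBLM as for Cdh1.

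**Figure D4:**
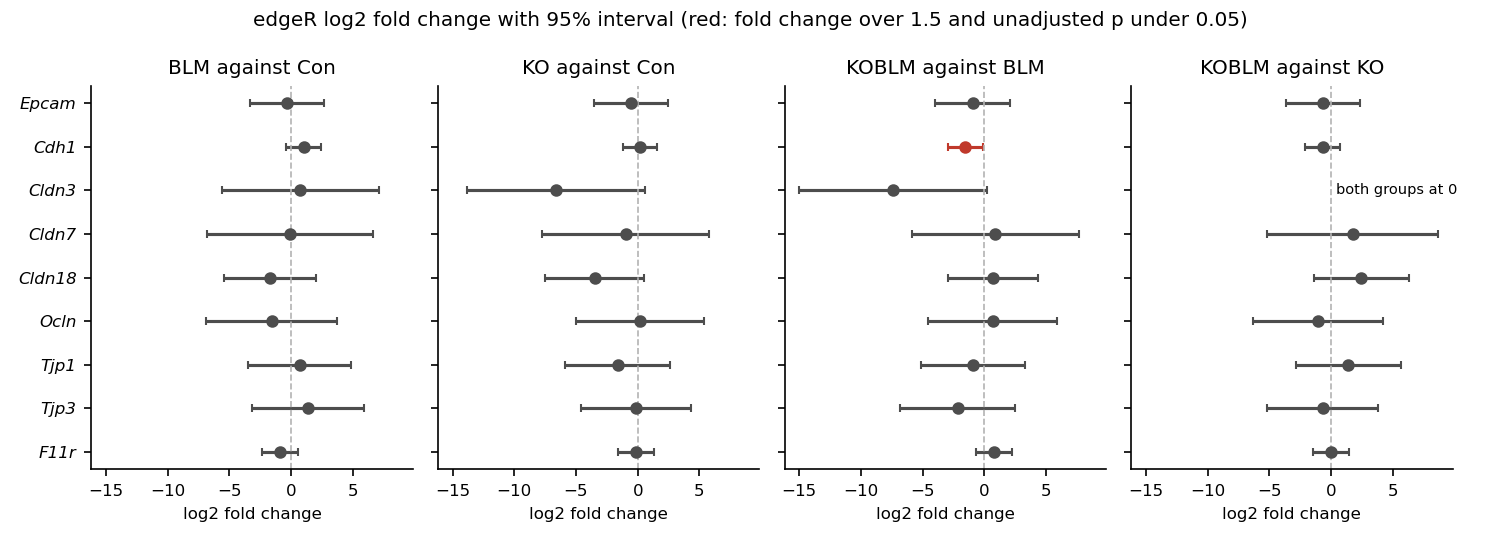
Log2 fold changes of the 9 members in the 4 comparisons of groups, from edgeR, with 95% intervals as bars on a common axis, and a dashed line at 0. The only interval that clears 0 and carries a call is that of Cdh1 in KOBLM against BLM (-1.53, red), and the intervals of Cldn3, Cldn7 and Ocln span many log2 units.

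Over the 9 members, 0 were called by edgeR at the unadjusted p in BLM against Con, where 4.27% of all tested genes were called, in KO against Con (1.44%) and in KOBLM against KO (1.69%). At an unadjusted p under 0.05 without the fold, the counts were the same. DESeq2 called 0, 1 (Cldn18) and 0 (its shares of all tested genes are not given here). None was called in the average effect of bleomycin (4.47% of all tested genes) or in the interaction (2.82%), for which DESeq2 called 1, also Cldn18. In BLM against Con the ranges of 0 of the 9 members did not overlap, against 17.1% of all tested genes. With adjusted p values, 0 members and 0% of all 13054 genes passed in any of the 7 comparisons. The median log2 fold change of the members was -0.11 in BLM against Con (median of all tested genes -0.08), -0.56 in KO against Con (-0.09) and -0.92 in KOBLM against BLM (0.10). In the last of these, 5 of 9 members lay below 0, and without BLM 3 the median was 0.09. In KOBLM against KO the median was -0.33 over 8 members (0.08 over all tested genes), since Cldn3 was at 0 in both groups. With Cldn3 at its bound in place of a fitted value, the medians of KO against Con and of KOBLM against BLM were also -0.56 and -0.92.

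Of 77 further genes of adherens junctions, claudins, scaffolds, desmosomes, EpCAM partners and epithelial regulators, 74 were in the files and 53 were tested. In BLM against Con 7 of the 53 were called, 1 as higher and 6 as lower (of all tested genes, 2.19% and 2.08%). The same 7 were called without BLM 3, where 5.45% of all genes tested then were called. The median log2 fold change of the 53 was 0.04. Cldn4, a sealing claudin, was counted at 8.14, 17.4 and 17.6 CPM in BLM and at 0 in the 9 libraries of the other groups, so that BLM was at least 42.9-fold higher than Con and at least 42.2-fold higher than KOBLM (exact permutation p = 0.1 for each). Cldn4 passed the count filter through BLM libraries alone, so its direction was set by how it entered the test. Inadl, the symbol in the files for the polarity scaffold Patj, fell from 69.8 ± 9.81 CPM in Con to 0.132 ± 0.228 CPM in BLM (exact permutation p = 0.1), where all libraries together held 3 counts, a pooled ratio of 602 (95% exact counting interval 206 to 2920). Of the 4 catenin genes of the adherens junction that were listed, 2 were called, both as lower, and Ctnna1 and Ctnnb1 were not (Ctnna1 is named after its values were seen). Ctnnb1 averaged 524 ± 196 CPM in Con and 548 ± 367 CPM in BLM, and Ctnna1 113 ± 6.99 CPM and 120.0 ± 30.8 CPM. Ctnnd1 (p120-catenin) averaged 434 ± 149 CPM in Con and 120 ± 57.2 CPM in BLM (log2 fold change -1.81), and Jup (plakoglobin) 217 ± 70.8 CPM and 56.4 ± 27.8 CPM (-1.87). The desmosomal gene Perp averaged 77.7 ± 27.9 CPM in Con and 20.0 ± 13.3 CPM in BLM (-2.02). Cd9, a tetraspanin, and Cd44, the hyaluronan receptor, are partners of EpCAM in membrane complexes and are also abundant in leukocytes. Cd9 averaged 1808 ± 277 CPM in Con and 358 ± 221 CPM in BLM (-2.23), and Cd44 3439 ± 555 CPM and 663 ± 554 CPM (-2.23; SD, n = 3 for all). The macrophage sum was 15110 to 28979 CPM in Con and 1316 to 13731 CPM in BLM. Other marker sums did not overlap between Con and BLM either: the fibroblast sum was 91.2 to 457 CPM and 1134 to 1839 CPM, the airway sum 23.4 to 128 CPM and 217 to 246 CPM, the alveolar type I sum 88.7 to 138 CPM and 276 to 399 CPM, the ATII sum 637 to 2170 CPM and 452 to 576 CPM, and the lymphocyte sum 29.2 to 84.4 CPM and 0 to 26.0 CPM. Their part in these results was not tested. For each of the 7 the adjusted p was 0.995 and the exact permutation p was 0.1, the smallest possible here.

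In KOBLM against BLM, 6 of the 53 were called, 4 as higher and 2 as lower, where 3.16% of all tested genes were called, 1.39% as higher and 1.78% as lower. Inadl (pooled ratio 69.9, counting interval 23.6 to 342), Cd9 (log2 fold change 1.70), Cd44 (1.64) and Jup (1.59) were higher in KOBLM, where BLM against Con, a comparison that shares the BLM libraries, had them lower. The macrophage sum was 1316 to 13731 CPM in BLM and 11442 to 25909 CPM in KOBLM, and the lymphocyte sum 0 to 26.0 CPM and 27.3 to 57.1 CPM, and their part was not tested. Cldn4 and Dsg2 (desmoglein-2) were lower in KOBLM, Dsg2 being at 103 CPM in BLM 3 and at up to 3.10 CPM in the others. Without BLM 3, 5 were called (3.34% of all genes tested then), of which 4 were shared, and Dsg2 and Jup were not. In KO against Con 1 of 53 was called, near the 1.44% of all tested genes, the repressor gene Snai1, at 12.97 and 2.99 CPM in 2 of the Con libraries and at 0 in KO (exact permutation p = 0.4). In KOBLM against KO 2 were called (1.69% of all tested genes), the desmosomal gene Dsp and the epithelial regulator Grhl2, both at 0 in KO and carried mainly by 1 KOBLM library each (64.0 and 10.4 CPM). The adjusted p was 1.0 for each. In the average effect of bleomycin, where 4.47% of all tested genes were called, 6 of the 53 were (Inadl, Cd9, Ctnnd1 and Cd44 lower, Grhl2 and Cxadr higher), and 9 were without BLM 3, against 7.16% of all genes tested then. Grhl2 and Cxadr had no count in Con or KO. They passed the count filter through bleomycin-treated libraries alone, so their direction was set by how they entered the test. This also holds for Grhl2 in KOBLM against KO. In the average genotype effect 6 were called (2.9% of all tested genes), Cd9 and Inadl higher and Dsg2, Pard6b, Cldn12 and Mpdz lower. Without BLM 3, 8 were called (4.64% of all genes tested then), of which 5 were shared, and Inadl was not called. Dsg2 and Pard6b had no count in any library labelled KO or KOBLM. They passed the count filter through control libraries alone, so their direction was set by how they entered the test. This also holds for Dsg2 in KOBLM against BLM. The most abundant genes of 6 of the lists were Ctnnb1 (542 CPM) for adherens junctions, Lsr (148 CPM) for other claudins and tricellular junctions, Jam3 (9.74 CPM) for the immunoglobulin family, Perp (57.1 CPM) for desmosomes, Cd44 (2236 CPM) for EpCAM partners and Zeb2 (269.7 CPM) for regulators. The mean of Jam3 was carried by BLM 3, at 90.9 CPM, against up to 15.3 CPM in the other libraries.

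Whether the members follow Epcam was asked on log2(CPM + 1) over libraries, in 10 relations, with permutation p values from 100000 resamples adjusted over the 10. Over all 12 libraries none passed after adjustment. The strongest were with Cldn7 (Pearson r = -0.75, permutation p = 0.0081, adjusted 0.0806; Spearman rho = -0.71, p = 0.0133, adjusted 0.133) and with F11r (r = 0.60, permutation p = 0.0411, adjusted 0.193; rho = 0.37, p = 0.236, adjusted 0.518). Without BLM 3, the relation with F11r was r = 0.81 (permutation p = 0.00367, adjusted 0.0367) and rho = 0.70 (p = 0.0206, adjusted 0.153) over 11 libraries. Leaving out the 2 libraries farthest from the median of Epcam (KO 2 and KOBLM 3) in addition gave r = 0.81 and rho = 0.58 over 9 libraries, whereas leaving out only these 2 from the full set gave r = 0.50. The 3 libraries with under 11 CPM of Epcam in the KOBLM and KO groups, and BLM 1, had 70.0 to 107 CPM of F11r. Cdh1 (r = 0.53 over 12 libraries, 0.40 over 11), the summed ATII markers (0.54 and 0.57) and the summed macrophage markers (-0.20 and 0.36) did not pass. Groups of 3 libraries were too small for a relation within a group.

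**Figure D5:**
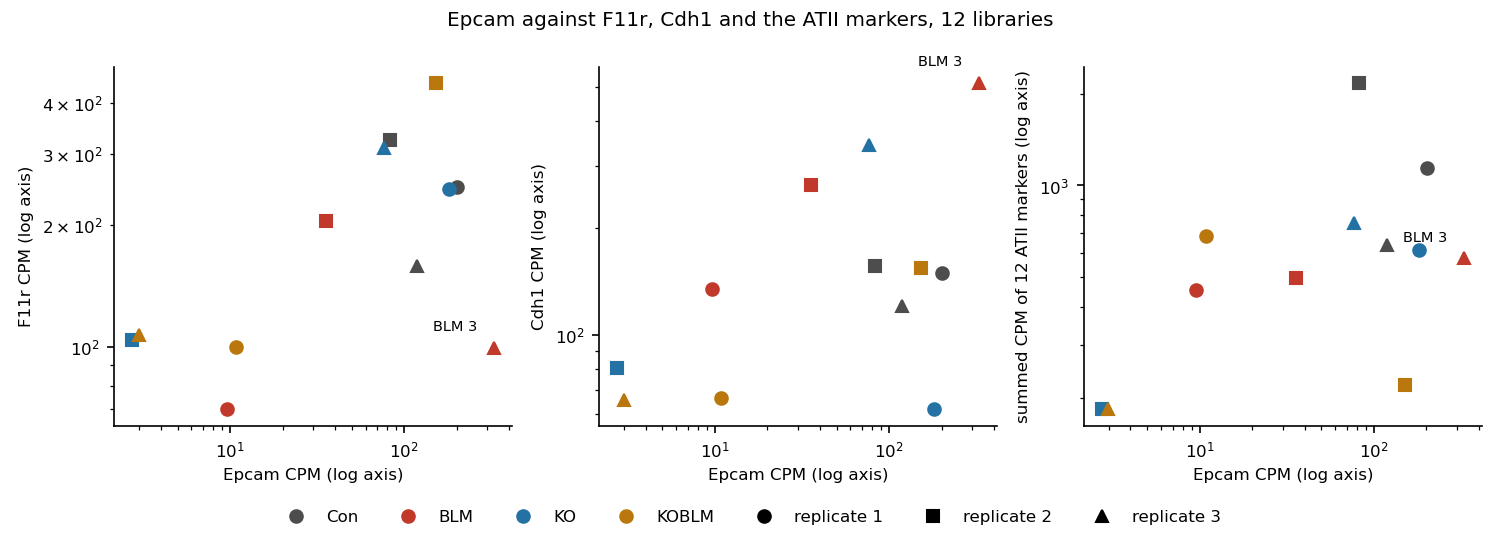
F11r, Cdh1 and the summed ATII markers against Epcam, all in CPM on log axes, with 1 point per library, colors for groups and marker shapes for replicate numbers. F11r is high where Epcam is high in 11 libraries (r = 0.81), and BLM 3 has the most Epcam (329 CPM) with 99.2 CPM of F11r.

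The genes nearest in pattern to Epcam were sought among 8943 tested genes with a mean of at least 10 CPM, by the root mean square difference of centred log2(CPM + 1). Over 12 libraries they were Pbk, Rbl1, Tle1, Srr and Tsr1, at differences of 1.15 to 1.34. Over the 11 libraries without BLM 3 they were Gal, Siglecf, Slc52a3, Trim47 and Ear10, at 0.80 to 0.93, so that no gene was in both sets. Siglecf is one of the macrophage markers used here. Of the members in that pool, F11r ranked nearest, 132nd over 11 libraries. For Cldn18, Rasip1, Smagp, Nkd1 and Ctla2a were among the nearest 5 in both sets, at 0.80 to 0.93 over 12 libraries, with Chst1 over 12 and Podxl over 11. These are descriptions of 12 or 11 shared libraries.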

How the data were processed

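RNA of sorted ATII cells was sequenced from the 3′ ends of transcripts (QuantSeq) in 12 libraries. The authors deposited raw read counts per gene symbol for each library, and the submitters' processing notes name Bowtie2, edgeR and mm10, without versions. The counter, the annotation and the use of strand are not given in the sources used here. Symbols were joined over the libraries (23238) and grouped by the labels. Genes were kept by edgeR's filterByExpr (minimum count 10, minimum total 15), which left 13054, scaled by TMM and tested in edgeR 4.0.16 (R 4.3.3) by the quasi-likelihood method, with 4 group means fitted over all 12 libraries (8 residual degrees of freedom). Genes were called at an unadjusted p under 0.05 with more than a 1.5-fold change, as in the study, and adjusted p values are Benjamini-Hochberg over all tested genes. The interaction and both average effects came from the same fit. Levels are CPM over the library total, given as mean ± SD. Exact permutation tests are two-sided, and 3 against 3 libraries cannot go below 0.1. The edgeR p values weigh a difference against the spread between libraries of a group, estimated over the 4 groups together. The permutation p values of the Epcam relations are over all libraries used and not within groups.

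Totals of 7005005 to 11153154 counts set the precision, and intervals and floors from counts cover counting error only, since reads were not tagged by molecule. Exact tests used scipy 1.17.1 under Python 3.11.15, tables pandas 2.3.3 and plots matplotlib 3.10.9. Alternatives were DESeq2 1.42.0, its size factors, library-size scaling, no filter, the replicate block, a fit of only the groups compared, other thresholds, each library left out, and, for levels and relations, TMM-scaled CPM and a pseudocount of 5 in place of 1. The procedure was tested on simulated data. Promoters come from RefSeq and gene positions from GENCODE, both on GRCm38. The members, gene lists and tests were chosen with earlier results of these data known. Named are all members, the called genes of the other junction lists (at most 8 per comparison by p), the most abundant gene of each list (1 is not reported here), Ep300, Cd74, the 5 genes nearest in pattern to Epcam and to Cldn18, and, of the marker lists, the 2 most abundant genes and defining markers at 0.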

Additional observations from a re-analysis of the deposited data

Results flagged for a closer look

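The effect of bleomycin differed between the libraries labelled as knockout and the controls for 2 of the 53 other junction genes by the edgeR interaction at the unadjusted threshold, which 2.82% of all tested genes passed. For the scaffold gene Inadl the interaction was 6.81 on the log2 scale (SE 2.34, adjusted p = 1.0), a fitted value that rests on 3 counts in BLM. Inadl was counted at 62.9, 81.1 and 65.6 CPM in Con, 0, 0.396 and 0 CPM in BLM, 90.6, 5.08 and 2.31 CPM in KO and 10.6, 9.05 and 5.10 CPM in KOBLM. Its interaction ran from 6.16 to 10.3 with each library left out in turn and was called each time, while DESeq2 gave no p for it.

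For the plakoglobin gene Jup the interaction was 2.37 (SE 1.04, adjusted p = 1.0). Jup was counted at 202, 294 and 155 CPM in Con, 50.2, 86.8 and 32.2 CPM in BLM, 213, 36.0 and 117 CPM in KO and 234, 218 and 60.9 CPM in KOBLM. The call was lost without BLM 1, Con 1, Con 2, KO 2, KO 3, KOBLM 1 or KOBLM 2.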

How the results depend on the processing

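Group means of CPM kept their size within 1 SD under TMM scaling. Depth limits Cldn3 and Cldn7, which had no count in 8 and 6 libraries, and Ocln in 3 libraries with 0 to 4 counts, and with a biological coefficient of variation of 1.44 no gene passed an adjusted threshold. With an adjusted p under 0.05 in place of the unadjusted one, 0 members and 0 of the other junction genes were called in each of the 7 comparisons, which ended the calls of Cdh1 in KOBLM against BLM and of Cldn3 in the average genotype effect. By fold change alone, the members past 1.5-fold numbered 7 in BLM against Con, 4 in KO against Con, 9 in KOBLM against BLM, 7 in KOBLM against KO, 3 in the average effect of bleomycin, 6 in the average genotype effect and 7 in the interaction, and the other junction genes 32, 34, 33, 36, 36, 30 and 39 in the same order. The share of all tested genes past 1.5-fold is not given here, so these numbers are not read as a trait of the junction genes. DESeq2 called 1 member and 4 other junction genes in KO against Con and 1 member in the interaction. A fit of only the groups compared called 1 member and 2 other genes in KO against Con, 0 members and 2 other genes in KOBLM against BLM, and 0 other genes in KOBLM against KO, and it moved the median of the members in KOBLM against BLM to -0.13. In KO against Con, DESeq2's size factors gave 2 other genes and library-size scaling gave 3. Without the low-count filter 1 other gene was called in KOBLM against KO and 5 in the interaction. Beyond these thresholds, fits and scalings, the cause of the changes was not tested. Shares of all genes called were given above for the main edgeR fit and, in some comparisons, without BLM 3. Counts of calls in the other fits, here and below, have no such share beside them and are not read against a background.

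Libraries that share a replicate number did not deviate together (correlations of -0.11 to 0.096), and not every library correlated best with its own number, so the numbers were not taken to pair the libraries. The fit with the replicate block called 0 members in KOBLM against BLM, where Cdh1 was at -1.41 and lost its call, 0 other genes in KOBLM against KO and 3 in the average genotype effect. With the replicate block the log2 fold change changed sign for Cldn7 in BLM against Con (2.94), for Cdh1 (-0.078), Ocln (-1.66) and F11r (0.13) in KO against Con, for Ocln in KOBLM against BLM (-0.69), for Tjp3 in KOBLM against KO (0.016), for Cldn3 (-0.069) and Cldn18 (-0.12) in the average effect of bleomycin, and for Cldn7 (0.95) and Ocln (-1.17) in the average genotype effect, none of which was called with all libraries and no block.

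With each library left out in turn, 0 to 0 in BLM against Con, 0 to 0 in KO against Con, 0 to 2 in KOBLM against BLM, 0 to 1 in KOBLM against KO, 0 to 0 in the average effect of bleomycin, 1 to 2 in the average genotype effect and 0 to 1 in the interaction members were called, and 5 to 7 in BLM against Con, 0 to 3 in KO against Con, 2 to 5 in KOBLM against BLM, 0 to 3 in KOBLM against KO, 5 to 9 in the average effect of bleomycin, 4 to 8 in the average genotype effect and 1 to 6 in the interaction other junction genes. The median of the members ran from -0.48 to 0.81 in BLM against Con, from -1.83 to 0.026 in KO against Con, from -1.32 to 0.093 in KOBLM against BLM, from -0.30 to 0.59 in KOBLM against KO, from -0.18 to 0.53 in the average effect of bleomycin, from -1.25 to -0.48 in the average genotype effect and from -0.75 to 1.40 in the interaction. Some log2 fold changes took either sign when a library was left out. In BLM against Con they ran from -2.37 to 0.24 for Epcam, from -1.61 to 1.46 for Cldn3, from -1.55 to 6.70 for Cldn7 and from -0.48 to 1.16 for Tjp1. In KO against Con they ran from -1.83 to 0.026 for Epcam, from -0.77 to 0.56 for Cdh1, from -6.83 to 5.82 for Cldn7, from -3.45 to 0.87 for Ocln, from -1.44 to 0.77 for Tjp3 and from -0.36 to 0.21 for F11r. In KOBLM against BLM they ran from -3.83 to 1.14 for Epcam, from -0.37 to 1.87 for Cldn18, from -1.10 to 1.55 for Ocln, from -3.52 to 0.24 for Tjp1 and from -0.19 to 1.55 for F11r. In KOBLM against KO they ran from -3.58 to 0.59 for Epcam, from -1.15 to 0.28 for Cdh1, from -2.85 to 2.56 for Ocln, from -1.26 to 4.18 for Tjp1 and from -1.48 to 0.67 for Tjp3. In the average effect of bleomycin they ran from -1.94 to 0.14 for Epcam, from -0.058 to 0.65 for Cdh1, from -0.80 to 0.73 for Cldn3, from -0.21 to 0.76 for Cldn18, from -2.22 to 0.50 for Ocln, from -0.31 to 2.43 for Tjp1 and from -0.045 to 1.03 for Tjp3. In the average genotype effect they ran from -2.20 to 0.29 for Epcam, from -2.97 to 3.35 for Cldn7, from -1.39 to 0.85 for Ocln and from -0.15 to 0.72 for F11r. In the interaction they ran from -3.28 to 1.69 for Epcam, from -1.46 to 1.61 for Cldn3, from -4.95 to 7.72 for Cldn7, from -1.26 to 4.12 for Ocln, from -1.90 to 3.50 for Tjp1 and from -0.077 to 1.66 for F11r. Without the 2 libraries farthest from the median of Epcam, its r changed sign for Cldn3 (-0.21), Ocln (-0.19), Tjp1 (-0.088) and Tjp3 (-0.0052). Without BLM 3, alone or with the 2 farthest libraries of the rest (the latter chosen after seeing the data), r ran from -0.12 to 0.17 for Cldn3, from -0.39 to 0.11 for Cldn18, from -0.34 to -0.019 for Tjp1, from -0.23 to 0.11 for Tjp3 and from 0.36 to 0.64 for the summed macrophage markers.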
